A study of Daphnia magna with 230 samples.

Results

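The 100 transcripts of *Daphnia magna* that varied least across both exposure experiments are described here as candidate reference transcripts. They were chosen by a rule on measured values. Counts were scaled by the column total of each library to CPM, the usual unit of counts relative to the library total, and rows with a mean between 20 and 200 CPM were kept. Of these rows the 100 with the lowest standard deviation (SD) of log2(CPM + 1) over all libraries of the 2 experiments but 1 were taken. The table held 29127 transcripts, 6429 of which lay in this window of levels. Because the members were selected on the same libraries that are compared below, their low spread and their small differences between conditions are descriptions of the choice, with no test behind them.

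*D. magna* is a small freshwater crustacean that is widely used in toxicity testing. Pools of 5 whole neonates were sequenced after 96 h of exposure in water. In the wetland experiment 69 libraries covered water of 6 wetlands with pyriproxyfen (24 libraries) or without it, at 0 ng/L (30 libraries), and laboratory water at 0 ng/L and at each of 2 doses (5 libraries each). The doses are those of the labels Lab Water-119 ng/L and Lab Water-239 ng/L, called the low and the high dose here, and the wetland waters had the low dose. Pyriproxyfen is an insecticide that mimics juvenile hormone. Per the study's methods the unspiked wetland waters received the ethanol vehicle, while the group in laboratory water without pyriproxyfen was water only and pyriproxyfen was added in ethanol, so in laboratory water the dose and the vehicle cannot be told apart. In the stormwater experiment 160 libraries covered stormwater without pyriproxyfen from 9 sampling points (pipes, and inflows and outfalls of sites labelled BMP) in spring (45 libraries), early summer (44) and late summer (50), and laboratory controls with the same season labels (6, 5 and 10 libraries in that order of seasons). The labels give one commercial source of animals for all libraries, whereas the methods speak of different genetic backgrounds in the 2 experiments. The pools of a group came from one water sample, so spread within a group is between pools and not between waters of a kind. Between single groups p-values measure that spread. Where a comparison joined several groups, each pool was taken as a replicate. Its p-values then mix spread between pools and between groups, and do not measure spread between waters alone. For PIPE-SAP and for the laboratory controls, late summer holds sets of libraries with the same labels and replicate numbers that differ only in the library code. They were kept as separate groups here, and the 10 libraries of the later codes are called the second sets. In all there were 47 groups of 3 to 6 libraries. Library totals lay between 6693442 and 15037010 counts in the wetland experiment and between 5040650 and 14182253 in the stormwater experiment.

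A reference transcript is one whose level is taken as fixed, so that the level of another transcript can be read as a ratio to it. This is how quantitative PCR is usually scaled. In crustaceans, as in other animals, the genes used for it are mostly those of the cytoskeleton, of the ribosome and of translation, such as actin, tubulin, ribosomal proteins and elongation factor 1-alpha. A low spread in a sequencing table depends on the treatment of the animals, on counting error, and on how the counts were scaled between libraries. Sequenced pools also measure shares of RNA, so fewer cells of a type and less RNA per cell cannot be told apart.

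None of the 100 members carried a name. The table gives transcript identifiers only, and none of the members was among the 1994 identifiers that the tables of the study name, against 9.72% of the 6429 transcripts in the window. Those tables list transcripts that differed between conditions, which a low SD works against. No gene name, sequence or position is therefore given for any member. The counting method divides reads that match several transcripts, which leaves counts that are not whole. The counts of 76 members were whole in every library (within 0.0005), against 55.7% of the transcripts in the window, and those of the other members were shared with another transcript in at least 1 library.

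One library stood apart and touches every value below. In replicate 3 of PIPE-Crystal-Lake in spring, a stormwater pipe, the 10 most abundant transcripts took 72.6% of all counts, against 6.58% to 22.3% (median 10.8%) in the other 228 libraries. Its total was the lowest of all (5040650), and 17509 transcripts were detected in it, against at least 19853 in the others. The most abundant was Dapma7bEVm020523t1 with 16.0% of the counts (it was picked after its values were seen), which had a median of 760.2 CPM and a highest value of 47911 CPM elsewhere. All 100 members were lowest in this library. Relative to their mean in the others they differed by -2.66 to -1.45 on the log2 scale (median -2.16), and 91.9% of the transcripts in the window were lower in it by over 1. Their mean log2(CPM + 1) was 3.21 in this library and lay between 4.93 and 5.597 in the others. After scaling by trimmed mean of M values (TMM), which sets the library size from the bulk of the transcripts, it was 5.28 in this library and between 5.03 and 5.61 in the others. The values below include this library unless stated otherwise, and part of them are also given without it.

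The members had mean levels of 20.1 to 197 CPM, with a median of 36.4 CPM against 41.0 CPM for the window. There were 35 members under 30 CPM, 47 between 30 and 60 CPM and 18 above that. The highest was Dapma7bEVm004477t1 (197 CPM) and the lowest Dapma7bEVm011703t1 (20.1 CPM). Over all libraries their SD lay between 0.203 and 0.247 with a median of 0.239, where the median of the window was 0.463. Without the library that stood apart the same members had SDs between 0.148 and 0.222 with a median of 0.189, beside a window median of 0.438. At the edge of the rule the last member, Dapma7bEVm010336t1, had an SD of 0.247 (48.4 CPM), and the first transcript outside, Dapma7bEVm000797t1, had 0.248 (64.1 CPM). Without the library that stood apart Dapma7bEVm010336t1 had an SD of 0.215 and ranked 227 in the window, while Dapma7bEVm000797t1 had 0.19995, so neither was then among the 100 lowest.

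**Figure D1:**
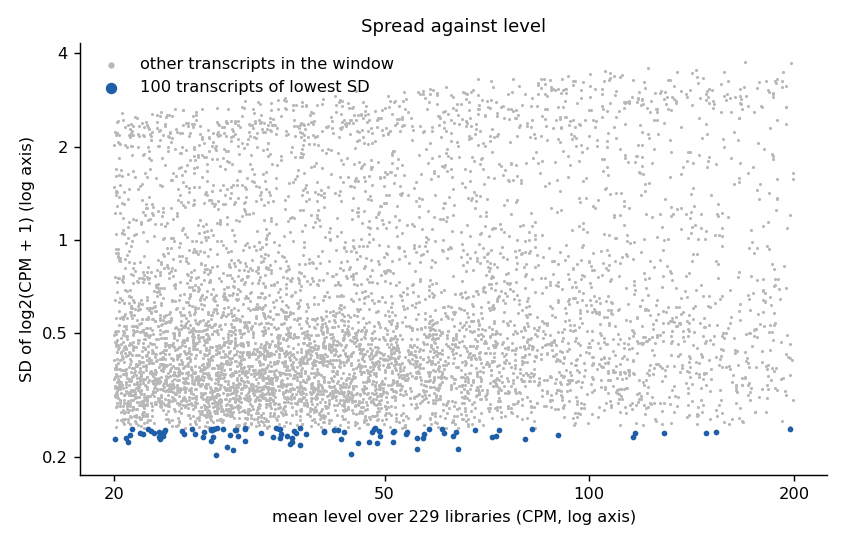
Each point is 1 of the 6429 transcripts in the window, with its mean level over all libraries in CPM (horizontal, log axis) and its SD of log2(CPM + 1) (vertical, log axis). The 100 members (blue) form the lower rim between 0.203 and 0.247 and run over the whole range of levels, against a median SD of 0.463 for the window.

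The transcript with the lowest SD was Dapma7bEVm005567t1 (0.203 with all libraries and 0.166 without the one that stood apart). In laboratory water it had 26.5, 28.0, 26.3, 26.2 and 29.3 CPM with 0 ng/L pyriproxyfen, 23.4, 27.7, 24.8, 28.2 and 26.7 CPM with the low dose, and 26.1, 19.6, 29.8, 26.5 and 32.6 CPM with the high dose (replicates 1 to 5). The 3 groups overlapped, and the widest range was that of the high dose. In wetland water it had a median of 28.8 CPM (24.8 to 36.6, n = 24) with the low dose and of 29.1 CPM (23.1 to 37.1, n = 30) with 0 ng/L. In stormwater the medians were 28.8 CPM in spring (7.54 to 34.6, n = 45), 27.3 CPM in early summer (17.1 to 31.5, n = 44) and 28.1 CPM in late summer (17.7 to 32.2, n = 50), and the lowest spring value was the library that stood apart. Over the 47 groups, that library left out, the group means ran between 24.1 ± 4.31 CPM (SD, n = 5) at BMP-TBNS1-Outfall in early summer and 33.1 ± 2.83 CPM (SD, n = 5) in Woodland Wetland water without pyriproxyfen.

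Next was Dapma7bEVm005636t1, with an SD of 0.204, which became the lowest of the window (0.148) without the library that stood apart. In laboratory water it had 46.4, 47.1, 43.3, 37.4 and 47.2 CPM with 0 ng/L, 48.2, 53.0, 41.3, 52.7 and 49.8 CPM with the low dose, and 47.2, 47.6, 52.9, 42.0 and 49.0 CPM with the high dose. The groups again overlapped. In wetland water its medians were 45.8 CPM with the low dose (38.6 to 53.7) and 42.7 CPM with 0 ng/L (33.2 to 53.5). In stormwater they were 41.2 CPM in spring (9.32 to 53.1), 46.4 CPM in early summer (31.9 to 51.7) and 45.3 CPM in late summer (37.1 to 53.3). Its lowest group mean was 36.6 ± 2.31 CPM (SD, n = 5) at BMP-TBNS2-Inflow in spring, and its highest 49.4 ± 1.89 CPM (SD, n = 5) in the second set of late summer controls.

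The next 8 in order were Dapma7bEVm009810t1, Dapma7bEVm010189t1, Dapma7bEVm005317t1, Dapma7bEVm000764t1, Dapma7bEVm005284t1, Dapma7bEVm003716t1, Dapma7bEVm007496t1 and Dapma7bEVm015924t1. Their SDs lay between 0.210 and 0.222, and between 0.157 and 0.177 without the library that stood apart. Dapma7bEVm009810t1 averaged 29.9 CPM over all libraries, with its lowest group mean of 24.3 ± 4.41 CPM (SD, n = 5) in laboratory water with the low dose and its highest of 34.2 ± 5.73 CPM (SD, n = 6) in the spring controls. Dapma7bEVm010189t1 averaged 55.8 CPM and had its highest group mean, 66.6 ± 17 CPM (SD, n = 5), in Kandiyohi Wetland water without pyriproxyfen, where the spread was also wide. Dapma7bEVm005317t1 averaged 64.0 CPM, and its level in the wetland experiment differed from that in the stormwater experiment by -0.0005 ± 0.029 (SE) on the log2 scale, the smallest gap of any member. This gap and its rank include the library that stood apart and were not computed without it. Dapma7bEVm005284t1 had its highest group mean, 44.8 ± 2.37 CPM (SD, n = 5), in the set of earlier codes at PIPE-SAP in late summer. Dapma7bEVm015924t1 had its highest, 54.5 ± 5.97 CPM (SD, n = 5), at PIPE-SAP in early summer, and its lowest, 37.9 ± 2.23 CPM (SD, n = 5), in laboratory water with the low dose. All 10 had counts that were whole in every library.

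**Figure D2:**
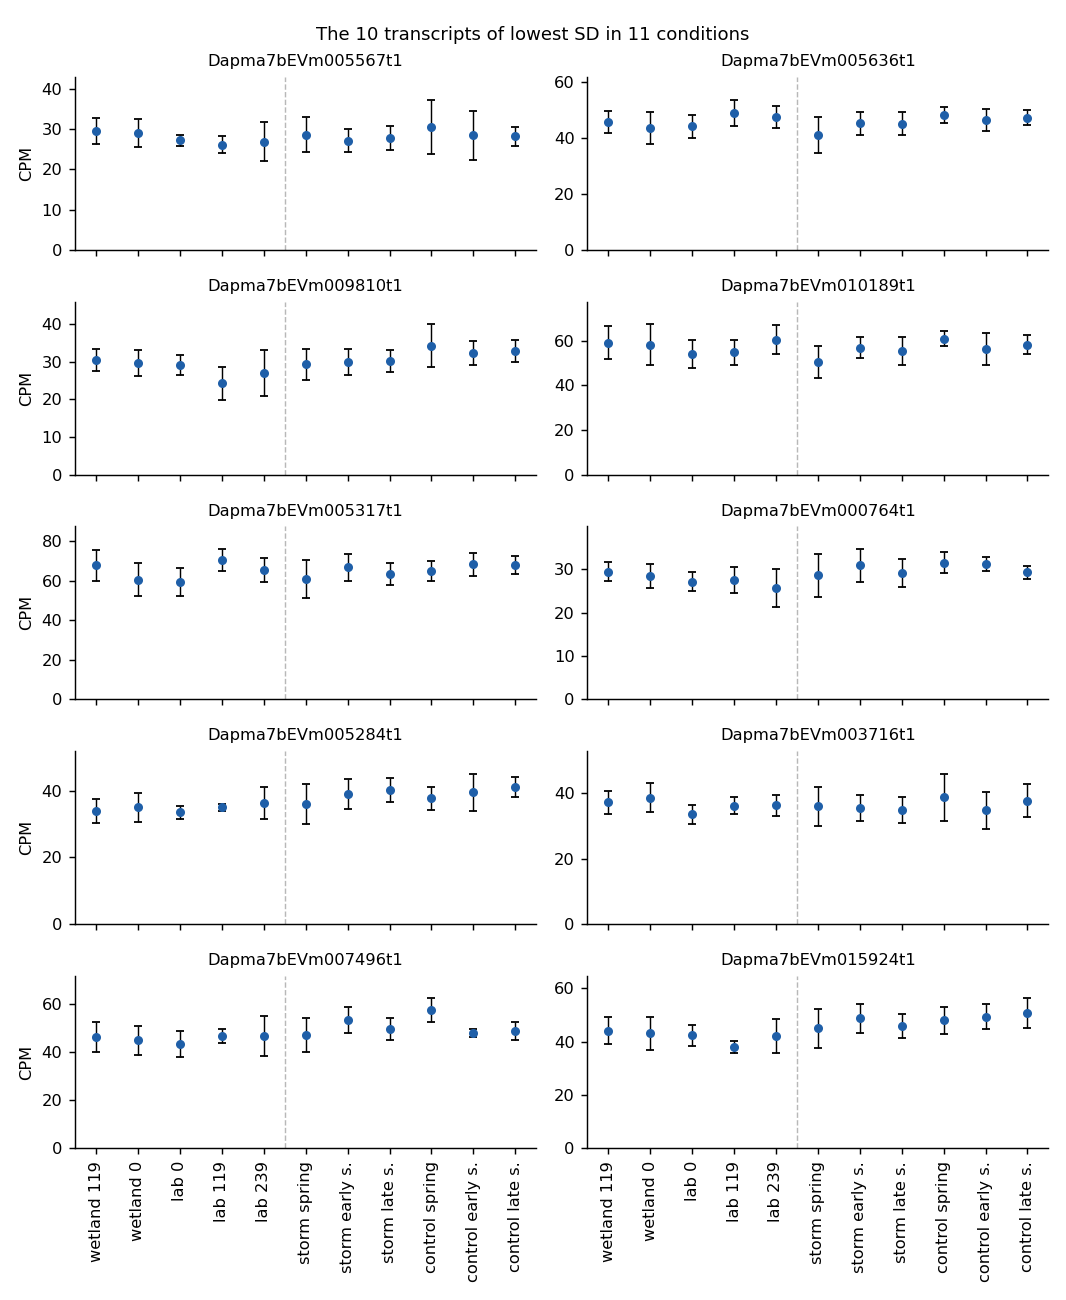
Mean level in CPM with SD over libraries (vertical, from 0) of the 10 transcripts of lowest SD in each of 11 conditions (horizontal; 5 to 50 libraries per condition, dashed line between the wetland and the stormwater experiment, doses in ng/L). For Dapma7bEVm005636t1 the means lie between 41.0 CPM in spring stormwater and 49.0 CPM in laboratory water with the low dose.

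The members' SD was larger than counting error alone gives. From the counts themselves, counting error alone gave an SD of 0.032 to 0.095 (median 0.073) for the members, and the measured SD was 2.39 to 7.69 times as large (median 3.21, window 7.05). Without the library that stood apart the median ratio was 2.64. The lowest ratio was that of Dapma7bEVm004580t1 (21 CPM, SD 0.223) and the highest that of Dapma7bEVm004477t1, which was the most abundant member and thus had the smallest counting error. The pooled SD within groups had a median of 0.217 for the members and 0.389 for the window, and of 0.166 and 0.362 without the library that stood apart. The SD of the 47 group means had a median of 0.133 for the members and 0.306 for the window, and of 0.114 and 0.296 without that library. The counting SD treats reads as independent molecules, which PCR copies are not.

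The members moved together across libraries. Over the 4950 pairs of members the median Pearson correlation across libraries was 0.53, and 0.27 without the library that stood apart, with 90.2% of the pairs above 0. The members share libraries and totals, so these values are a description. A single component took 53.3% of the members' variance, and 29.7% without that library. The log2 ratio of a pair of members, taken as a difference of log2(CPM + 1), depends on the library total only through the pseudocount. Its SD had a median of 0.228 over the pairs (0.134 to 0.360) and of 0.227 without the library that stood apart. By the mean SD of this ratio to the other members, the tightest were Dapma7bEVm005636t1 (0.194), Dapma7bEVm010377t1 (0.201) and Dapma7bEVm005317t1 (0.202), where the widest member, Dapma7bEVm010336t1, had 0.272.

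The spread was next compared by experiment, dose and season. With all libraries 95 of the 100 members had a lower SD in the wetland experiment (median 0.192) than in the stormwater experiment (median 0.249). Without the library that stood apart the stormwater median fell to 0.179, and 38 of the 100 members had a lower SD in the wetland experiment, against 63.3% of the transcripts in the window. In laboratory water the median SD of the members was 0.138 with 0 ng/L pyriproxyfen, 0.149 with the low dose and 0.206 with the high dose, beside window medians of 0.253, 0.272 and 0.354 at the same doses. In wetland water it was 0.170 with the low dose and 0.191 with 0 ng/L. In stormwater it was 0.360 in spring, or 0.169 without the library that stood apart, then 0.168 in early summer and 0.170 in late summer. In the 21 controls of the stormwater experiment it was 0.171. In each of these conditions the members' median was below that of the window, which is what the rule selects for.

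**Figure D3:**
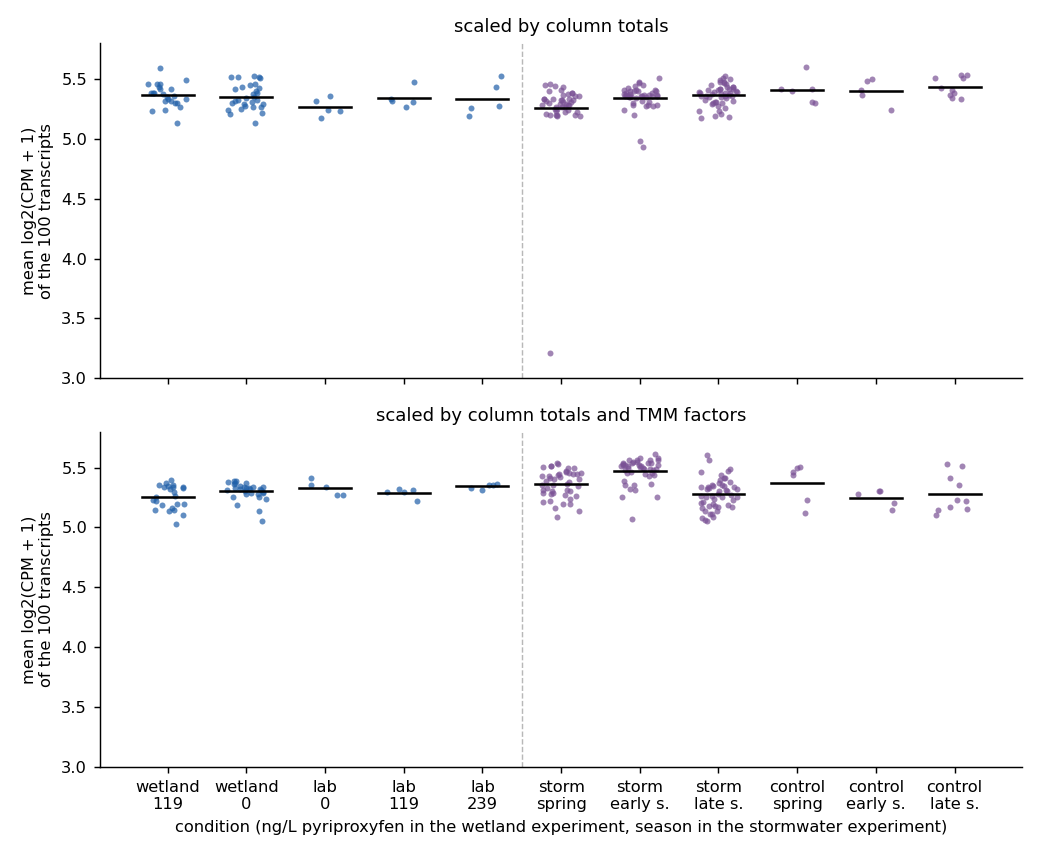
Mean log2(CPM + 1) of the 100 members (vertical) in each library (points) by condition (horizontal, doses in ng/L for the wetland experiment, seasons for the stormwater experiment), scaled by column totals (top) and with TMM factors (bottom); bars are means. By column totals 1 spring stormwater library lies at 3.21 and 2 early summer libraries at 4.93 and 4.98, and after TMM scaling the library at 3.21 lies at 5.28.

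Over all libraries of each experiment, whose waters differ, the mean level of the members was close between the experiments. The library that stood apart is included in these values. The difference, wetland minus stormwater experiment, had a median of 0.03 over the members and lay between -0.21 and 0.19, with 56 members higher in the wetland experiment. For 66 members it was under 0.1 in size, against 23.1% of the transcripts in the window, whose 5th and 95th percentiles were -0.65 and 1.18. The widest gap was that of Dapma7bEVm007031t1 (-0.21 ± 0.026, SE, 69 and 160 libraries), with a mean of 48.9 ± 2.89 CPM (SD, n = 3) in Douglas Wetland water with the low dose and of 73.7 ± 5.21 CPM (SD, n = 5) at BMP-TBNS2-Inflow in early summer. Across the window the SDs in the 2 experiments had a Spearman correlation of 0.88, and among the members, whose range the rule had narrowed, of 0.04. Between the laboratory controls alone, given below, the differences in level were wider, with a median of -0.15 and 39 members under 0.1 in size. These are means of 5 and 21 libraries, with a larger sampling error than those of 69 and 160. The counts under 0.1 are therefore not comparable between these readings.

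The members were then read out in 8 comparisons. In each, all transcripts with variance in both experiments and counts in the compared libraries were tested with edgeR's quasi-likelihood test after TMM, and a transcript was called at a Benjamini-Hochberg adjusted p-value under 0.05. The same libraries chose the members, so nothing is read from their number of calls beside the share of all transcripts. With the study's threshold of an absolute log2 fold change over 2 besides, 0 of the 100 members were called in any of the 8 comparisons, and the widest fitted log2 fold change of a member was -0.43.

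With the low dose against 0 ng/L pyriproxyfen in laboratory water, no member was called by edgeR (14 at an unadjusted p under 0.05). Of 24858 transcripts edgeR called 10.1%, 3.86% higher and 6.21% lower, and 5.13% with a log2 fold change over 2 in size. DESeq2 called 6 members, and its share of all transcripts is not given. The differences of mean log2(CPM + 1) lay between -0.32 and 0.44 with a median of 0.06, and 10 members had groups that did not overlap (15.9% of the window). The widest positive one was that of Dapma7bEVm001936t1, which had 65.0, 81.0, 70.9, 80.2 and 73.3 CPM with the low dose, against 53.6, 58.9, 51.2, 47.7 and 60.1 CPM with 0 ng/L. All 5 libraries with the low dose were above all 5 without (difference 0.44 ± 0.084, SE), and the adjusted p was 0.078 by edgeR's quasi-likelihood test. Scaled by column totals alone, edgeR gave it an adjusted p of 0.0498, so the call depends on the scaling. With that scaling 2431 of the 24858 transcripts were called. The widest negative one was Dapma7bEVm002208t1 with 18, 16.3, 15, 25.5 and 16.5 CPM with the low dose, against 22, 20.9, 19.8, 25.4 and 25.6 CPM with 0 ng/L, whose groups overlapped (-0.32 ± 0.15, SE, adjusted p = 0.12 by edgeR).

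With the high dose against 0 ng/L in laboratory water, no member was called either (2 at an unadjusted p under 0.05 by edgeR, and 0 called by DESeq2). Of 24904 transcripts 0.94% were called, 0.157% higher and 0.783% lower, and 0.779% with a log2 fold change over 2 in size. The differences lay between -0.26 and 0.37 (median 0.08), and 2 members had groups that did not overlap (4.25% of the window). Dapma7bEVm010783t1 had the widest positive one, with 30.0, 35.0, 27.7, 26.4 and 24.3 CPM with the high dose, against 24.8, 25.8, 21.1, 16.7 and 21.4 CPM with 0 ng/L. The groups overlapped, and the adjusted p was 0.52 by edgeR. Dapma7bEVm004747t1 had the widest negative one, with 20.2, 16.1, 19.5, 21 and 22 CPM with the high dose, against 24.5, 23.9, 23.2, 22.8 and 24.3 CPM with 0 ng/L. All 5 libraries with the high dose were below all 5 without (-0.26 ± 0.075, SE), with an adjusted p of 0.29 by edgeR's quasi-likelihood test.

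With the low dose against 0 ng/L in wetland water, 13 members were called, 3 higher and 10 lower, where 15.4% of 26166 transcripts were called (7.55% higher, 7.81% lower, and 1.11% with a log2 fold change over 2 in size). The differences lay between -0.22 and 0.23, and for 75 members they were under 0.1 in size, against 35.1% of the window. With column totals in place of TMM 10 members were called, 4 higher and 6 lower, where 3857 of the 26166 transcripts were called. Of these members 9 were called in the same direction as with TMM. The share of higher calls over all transcripts was then 59.2%, against 49.1% with TMM. Dapma7bEVm015920t1 rose by the most, with a median of 81.0 CPM (70.4 to 87.1, n = 24) with the low dose, against 67.9 CPM (49.7 to 81.5, n = 30) with 0 ng/L. It was higher in the means of 6 of 6 wetlands (0.23 ± 0.032, SE, adjusted p = 0.0044 by edgeR). Dapma7bEVm010783t1 fell by the most, with a median of 22.9 CPM (17.7 to 32.2) with the low dose, against 27.0 CPM (22.7 to 36.4) with 0 ng/L, and was lower in 6 of 6 wetlands (-0.22 ± 0.050, SE, adjusted p = 0.000148 by edgeR). In laboratory water the same transcript had a positive difference with the low dose (0.32) and the widest positive one with the high dose. Neither passed the test. The difference between these effects was not tested.

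Between wetland and laboratory water without pyriproxyfen, 1 member was called, Dapma7bEVm004741t1, where 1.4% of 25989 transcripts were called (0.619% higher, 0.777% lower, and 0.527% with a log2 fold change over 2 in size). It had a median of 28.9 CPM (21.7 to 35.6, n = 30) in wetland water, against 17, 24.1, 21.5, 19.7 and 25.2 CPM in laboratory water (0.39 ± 0.10, SE, adjusted p = 0.0494 by edgeR), and the groups overlapped. The share of higher calls over all transcripts was 44.4% with TMM and 62.7% with column totals. Under column totals this member was called in the same direction, where 407 of the 25989 transcripts were called. The call was lost when any 1 of the 5 laboratory libraries was left out. The widest negative difference was that of Dapma7bEVm003202t1, with a median of 62.5 CPM (45.5 to 75.5) in wetland water, against 71.5, 65.5, 64.6, 60.9 and 68.6 CPM in laboratory water (-0.14 ± 0.052, SE, adjusted p = 0.22 by edgeR). In part of the libraries its counts were shared with another transcript. The vehicle was present in the wetland groups and not in the laboratory group, so the vehicle and the water cannot be told apart.

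**Figure D4:**
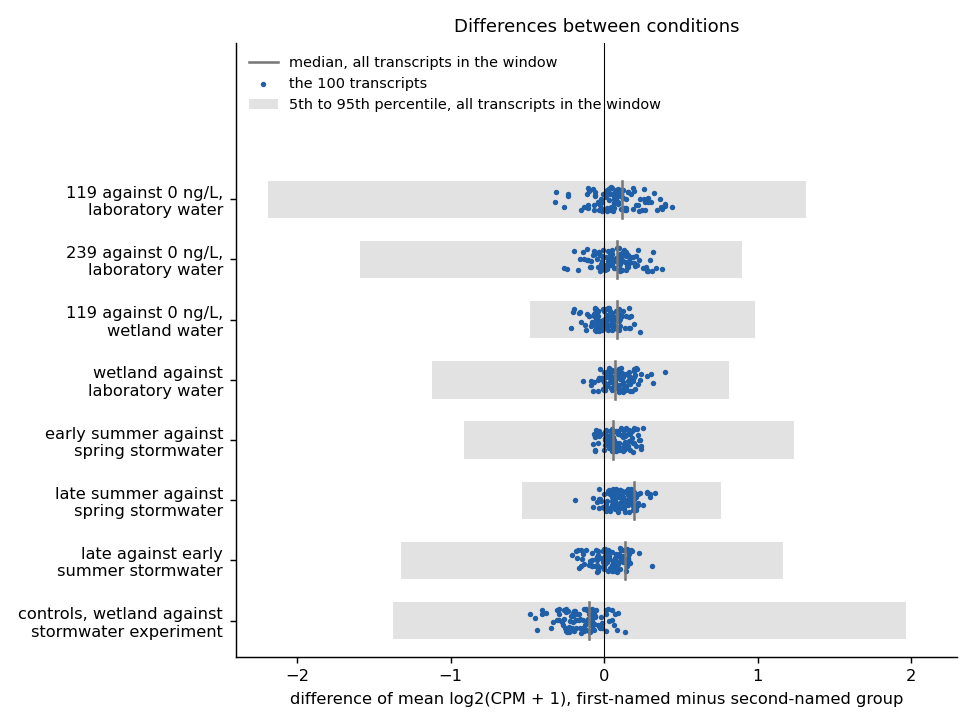
Difference of mean log2(CPM + 1) of each of the 100 members (points, horizontal) in the 8 comparisons, the group named first minus the other, over the 5th to 95th percentile (grey bars) and median (grey line) of the 6429 transcripts in the window. The members lie between -0.48 and 0.44, and in the comparison of the laboratory controls 12 of them are above 0.

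Among the stormwaters more members were called. Between early summer and spring 54 members were called, all 54 higher in early summer, where 35.3% of 26111 transcripts were called (17.2% higher, 18.1% lower, and 1.91% with a log2 fold change over 2 in size). The count was 48, all higher, without the library that stood apart. It was 21 with column totals alone, where 7839 of the 26111 transcripts were called. The differences of mean log2(CPM + 1) lay between -0.08 and 0.25 (median 0.08), and between -0.12 and 0.20 (median 0.04) without that library. Dapma7bEVm002804t1 rose by the most, with a median of 61.3 CPM (42.3 to 77.1, n = 44) in early summer, against 51.3 CPM (10.7 to 67.1, n = 45) in spring, where the lowest value without that library was 40.7 CPM. It was higher at 9 of 9 sampling points. By column totals its difference was 0.25 ± 0.061 (SE, adjusted p = 0.00072 by edgeR), or 0.20 without the library that stood apart. After TMM its adjusted p was 2.42e-08 by edgeR. The widest negative difference was that of Dapma7bEVm003683t1 (-0.08 ± 0.064, SE, and -0.12 without the library that stood apart). It did not pass the test, with a median of 21 CPM in early summer, against 22.4 CPM in spring.

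Between late summer and spring 52 members were called, 1 higher and 51 lower in late summer, where 30.5% of 26151 transcripts were called (15% higher, 15.5% lower, and 1.49% with a log2 fold change over 2 in size). This direction depended on the scaling. With column totals in place of TMM 39 members were called, 38 higher and 1 lower, where 9694 of the 26151 transcripts were called. The median log2 fold change of all transcripts then moved up by 0.19. The share of higher calls over all transcripts was 80.5%, against 49.2% with TMM. Of the members, 69 had opposite signs under the 2 scalings, and 2 were called in the same direction under both. Without the library that stood apart 43 were called, 2 higher and 41 lower. The differences of mean log2(CPM + 1) lay between -0.19 and 0.33 (median 0.11), and between -0.24 and 0.29 (median 0.07) without that library. Dapma7bEVm005747t1 was higher under both scalings, with a median of 54.3 CPM (41.3 to 72.2, n = 50) in late summer, against 43.1 CPM (10.8 to 57.8, n = 45) in spring, and at 9 of 9 sampling points. By column totals its difference was 0.33 ± 0.055 (SE, adjusted p = 2.27e-07 by edgeR), or 0.29 without the library that stood apart. After TMM its adjusted p was 0.0016 by edgeR, where the highest fitted log2 fold change of any member was 0.12. The counts of Dapma7bEVm005747t1 were shared with another transcript in every library. Dapma7bEVm002855t1 was lower under both, with a median of 101 CPM (81.9 to 137.1) in late summer, against 119.4 CPM (24.4 to 152.8) in spring, and at 8 of 9 sampling points. By column totals its difference was -0.19 ± 0.061 (SE, adjusted p = 0.00056 by edgeR), or -0.24 without the library that stood apart. After TMM its adjusted p was 4.01e-09 by edgeR.

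Between late and early summer 91 members were called, 1 higher and 90 lower in late summer, where 44.4% of 26171 transcripts were called (24.3% higher, 20.1% lower, and 1.07% with a log2 fold change over 2 in size). With column totals in place of TMM 46 members were called, 29 higher and 17 lower, where 13112 of the 26171 transcripts were called. The median log2 fold change of all transcripts then moved up by 0.21. The share of higher calls over all transcripts was 81.3%, against 54.8% with TMM. Of the members called under both scalings, 18 kept their direction and 19 reversed it. Dapma7bEVm001096t1 was higher under both, with a median of 30.1 CPM (24.6 to 38.5, n = 50) in late summer, against 24.6 CPM (19.9 to 32.3, n = 44) in early summer, and at 9 of 9 sampling points. By column totals its difference was 0.31 ± 0.031 (SE, adjusted p = 6.63e-13 by edgeR). After TMM its adjusted p was 0.0080 by edgeR, where the highest fitted log2 fold change of any member was 0.098. Dapma7bEVm002855t1 was lower under both, with a median of 101 CPM in late summer, against 118.4 CPM (84.7 to 146.2) in early summer, and at 9 of 9 sampling points. By column totals its difference was -0.21 ± 0.032 (SE, adjusted p = 2.57e-07 by edgeR). After TMM its adjusted p was 7.33e-11 by edgeR. The 3 season comparisons share libraries. The mean log2(CPM + 1) of the members by column totals was 5.26 ± 0.32 in spring (5.30 ± 0.075 without the library that stood apart), 5.34 ± 0.11 in early summer and 5.36 ± 0.087 in late summer, and after TMM scaling 5.36 ± 0.11, 5.47 ± 0.11 and 5.28 ± 0.13 in the same order (SD over 45, 44 and 50 libraries).

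The laboratory controls of the wetland experiment (5 libraries) were compared with those of the stormwater experiment (21 libraries), where neither had been in wetland water, stormwater or pyriproxyfen. The differences of mean log2(CPM + 1) lay between -0.48 and 0.13 with a median of -0.15, where the window median was -0.10. Of the members 12 were above 0, and 39 were under 0.1 in size, against 16.1% of the window. One member was called, lower in the wetland experiment, where 14.5% of 25755 transcripts were called (6.96% higher, 7.55% lower, and 4.12% with a log2 fold change over 2 in size). It was Dapma7bEVm001720t1, with 26.9, 24.8, 30.8, 27.0 and 34.4 CPM in the wetland experiment, against a median of 39.4 CPM (30.1 to 57.8) in the stormwater experiment (-0.48 ± 0.094, SE, adjusted p = 0.015 by edgeR). By column totals 11 members were called, all lower, where 3796 of the 25755 transcripts were called. The median log2 fold change of all transcripts was then -0.24, against -0.05 with TMM. The share of higher calls over all transcripts was 27.7% with column totals and 48.0% with TMM. The widest positive difference was that of Dapma7bEVm003202t1, with 71.5, 65.5, 64.6, 60.9 and 68.6 CPM in the wetland experiment, against a median of 61.3 CPM (47.1 to 75.9) in the stormwater experiment (0.13 ± 0.052, SE, adjusted p = 0.064 by edgeR). The experiment and the genetic background of its animals cannot be told apart here.

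After TMM, over the 8 comparisons 4 members were never called, 13 were called once, 53 in 2, 27 in 3 and 3 in 4 comparisons. The same counts over all transcripts are not given, and the calls between seasons depended on the scaling. These counts are therefore not read as a measure of stability. The 4 that were never called were Dapma7bEVm004294t1, Dapma7bEVm004024t1, Dapma7bEVm009867t1 and Dapma7bEVm010336t1, which are named after their values were seen.

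Families that are often used as references were read out where the tables of the study name them. There were 34 such transcripts, of which 21 were 40S or 60S ribosomal proteins, 5 actins, 5 tubulins, 2 were elongation factor 1-alpha and 1 was polyubiquitin. These tables list transcripts that differed between the conditions, so the 34 were chosen on these samples and do not stand for their families. None reached a mean of 20 CPM, 10 had a mean of at least 1 CPM, and all 34 were at 0 in at least 1 library. The highest was Dapma7bEVm018150t1 (actin-87e) with a mean of 9.80 CPM, an SD of 1.56 and values of 0 to 202 CPM. Dapma7bEVm011615t1 (tubulin alpha-1 chain) averaged 4.18 CPM with an SD of 1.28. Both were picked after their values were seen, and both lay below the level window, so they could not have been members whatever their spread.

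The list was also drawn up in other ways. Scaled with TMM, 18 of the 100 members were again among the 100 of lowest SD, and with median-of-ratios size factors 22 were. The members' median SD after TMM was 0.208 (0.127 to 0.283), beside a window median of 0.423. Without the library that stood apart 68 of the 100 were kept. In that library the 32 lost had differed from their mean in the others by a median of -1.92 on the log2 scale, the 68 kept by -2.26 and the 32 that took their places by -2.55. The wetland experiment alone kept 28 of the members and the stormwater experiment alone 67, or 52 without the library that stood apart. The 100 lowest of the 2 experiments had 18 transcripts in common, which is 18% of each list, and 14 of these were members. Among the 14 were Dapma7bEVm005567t1, Dapma7bEVm005636t1, Dapma7bEVm000764t1, Dapma7bEVm005284t1 and Dapma7bEVm003716t1 of the 10 lowest.

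**Figure D5:**
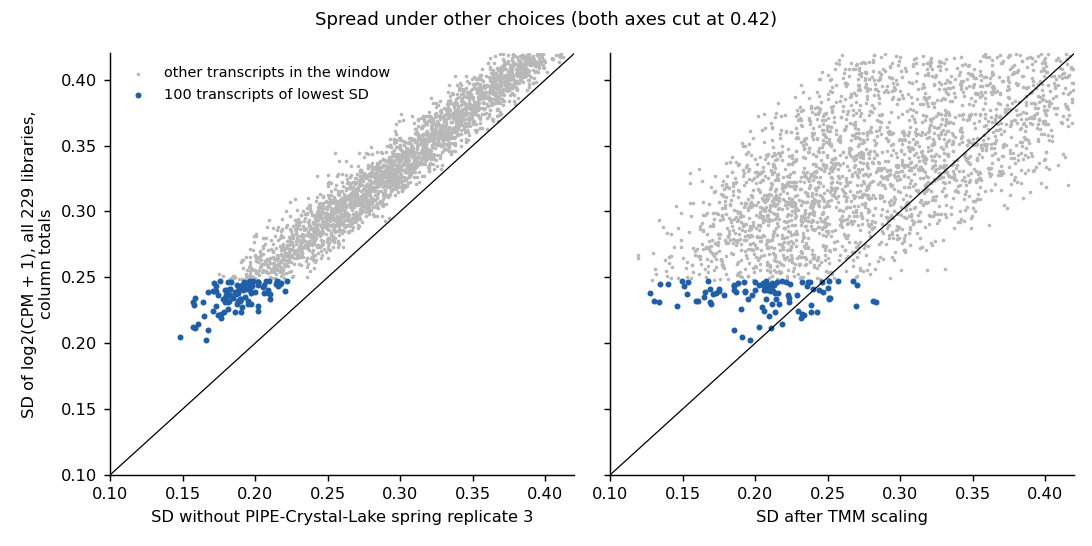
SD of log2(CPM + 1) over all libraries by column totals (vertical) against the SD without replicate 3 of PIPE-Crystal-Lake in spring (left) and against the SD after TMM scaling (right), for transcripts in the window up to 0.42 on each axis; the line marks equal values. The members (blue) lie between 0.148 and 0.222 on the left and between 0.127 and 0.283 on the right, where other transcripts (grey) reach lower values than most members.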

How the data were processed

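RNA of pooled neonates was made into strand-specific libraries and sequenced in pairs of short reads by the authors. They used FastQC and Trimmomatic on the reads and Kallisto to match them to a transcript set. The authors' deposited table holds one estimated count per transcript and library, not normalized between libraries. No version or genome build is given in the sources used here. Of the values 31.4% were not whole, and they were rounded to whole numbers for the tests. All 230 columns belong to this series. One library was left out, since its label and its library code give different seasons. A floor of 3 counts is 0.2 to 0.595 CPM at these depths.

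The members and the gene lists were chosen with earlier results of these data known. CPM used column totals and a pseudocount of 1 CPM. Groups were compared with edgeR 4.0.16 (TMM, quasi-likelihood test, no covariates, Benjamini-Hochberg) in R 4.3.3, on 26256 transcripts with variance in both experiments, less those at 0 in the compared libraries. The test was run on simulated counts with large changes, balanced in direction and called with the study's fold change threshold besides. That run does not reach changes as small as those of the members, nor the choice of scaling. Alternatives were DESeq2 1.42.0, other scalings, filters, covariates, sets of libraries, and measures of spread. Descriptions used Python 3.11.15 with pandas 2.3.3. A further batch correction in the study's methods was not applied.

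Named were the 10 members of lowest SD, those on both sides of the edge, the highest and lowest level, the widest difference in each direction of each comparison, the widest and narrowest gap between experiments, the 3 with the tightest ratios, and the extremes against counting error. Other names are marked as given after the values were seen.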

Additional observations from a re-analysis of the deposited data

Results flagged for a closer look

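The mean log2(CPM + 1) of the 100 members was checked in 45 groups of 4 to 6 libraries for a library far from the rest of its group, and the CPM of the 10 members of lowest SD in the 3 laboratory water groups (30 sets of values). Chance alone marks about 1 in 20 groups, and 4 values were marked here. Replicate 3 of PIPE-Crystal-Lake in spring had 3.21, against 5.24 to 5.32 in its group, and its 10 most abundant transcripts took 72.6% of its counts. Replicate 2 of BMP-TBNS2-Outfall in early summer had 4.98, against 5.30 to 5.41 in its group, and its 10 most abundant transcripts took 21.3% of its counts. Replicate 1 of PIPE-Crystal-Lake in early summer had 5.20, against 5.35 to 5.36 in its group, with 16.8% of its counts in its 10 most abundant transcripts. After TMM scaling these libraries had 5.28, 5.49 and 5.48. The part of the most abundant transcripts in the low values was not tested. Of the single transcripts, Dapma7bEVm005284t1 had 33.0 CPM in replicate 5 of laboratory water with the low dose, against 35.2 to 36 CPM in the other 4 libraries.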

How the results depend on the processing

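The members of the list depended on scaling and on the libraries used. Of the 100, 18 were kept with TMM and 22 with median-of-ratios scaling, 54 with the pooled SD within groups, 51 with the median absolute deviation, 55 with the SD over group means, 28 in the wetland experiment alone and 34 in laboratory waters and controls alone. The other 6 ways of drawing up the list with another pseudocount, level window or set of libraries kept 67 to 100, and 68 were kept without replicate 3 of PIPE-Crystal-Lake in spring, an alternative chosen after seeing the data. Their median SD was 0.239, and moved to 0.208 with TMM, 0.193 with median-of-ratios scaling, 0.192 in the wetland experiment, 0.249 in the stormwater experiment and 0.189 without that library. The number of members called moved with the tool and the filter. For the alternatives other than column totals the share of all transcripts called is not given. These counts are therefore not read as changes in the members themselves. Column totals in edgeR were chosen after seeing the data, in all 8 comparisons. For the low dose against 0 ng/L in laboratory water (0 by edgeR) it was 6 with DESeq2, 3 with filterByExpr, 1 with column totals and 0 to 1 with each library left out (1 without replicate 3 of the low dose). For the low dose against 0 ng/L in wetland water it was 13, and 22 with filterByExpr. For wetland against laboratory water it was 1, and 0 with median-of-ratios factors and with each laboratory library left out. For early summer against spring it was 54, and 21 with column totals, and for late against early summer 91, and 46 with column totals. For the laboratory controls it was 1, and 8 with DESeq2, 4 with median-of-ratios factors, 4 with filterByExpr, 11 with column totals, 3 without the second set and 1 to 3 with each of the wetland experiment's 5 controls left out (2 without replicate 1, 3 without replicate 2 or 4), while none of the stormwater experiment's 21 controls was left out in turn. With an absolute log2 fold change over 2 it was 0 in all 8 comparisons. Libraries of the same replicate number were not treated as pairs in the main tests. Same-numbered libraries had deviations that correlated by over 0.1 in 2 of 5 pairs at the low dose and 4 of 5 at the high dose. The same held for 7 of 24 pairs in wetland water and 12 of 30 for wetland against laboratory water. For the seasons it held for 10 of 44 (early summer and spring), 19 of 50 (late summer and spring) and 21 of 49 (late and early summer). For the controls it held for 11 of 20. With the replicate number as a block the counts were 0 and 0 in laboratory water at the low and the high dose, 11 in wetland water, 0 for wetland against laboratory water, 54, 54 and 91 for the seasons and 1 for the controls. Depth limits the lowest members most, where counting error alone gives an SD of 0.095.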

Other observations

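The library that was left out, whose label says late summer while its code carries the letter of the early summer libraries, was not used to choose the members. In it, all 100 members lay within 2 SD of their mean over the other libraries, as did 99.9% of the transcripts in the window. The median absolute difference from the mean was 0.106 on the log2 scale for the members and 0.242 for the window, and the widest of a member was 0.302. With 1 library there is no test.

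Each member was counted over the 14 other ways of drawing up the list that were tried, which share libraries and are not independent of each other. No member was kept by all 14. Dapma7bEVm004294t1 (72.0 CPM) and Dapma7bEVm010377t1 (55.7 CPM) were kept by 13, and both were picked here after their values were seen. Their SDs were 0.232 and 0.231 by column totals, 0.182 and 0.157 without the library that stood apart, and 0.130 and 0.134 after TMM scaling. The counts of Dapma7bEVm004294t1 were shared with another transcript in every library, and those of Dapma7bEVm010377t1 were whole in each. A further 5 members were kept by 12, among them Dapma7bEVm005636t1 and Dapma7bEVm000764t1, while Dapma7bEVm005567t1, the lowest by column totals, had an SD of 0.196 after TMM scaling and was kept by 11.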
